A study of Mus musculus with 12 samples.

Results

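The genes described here are 10 parts of the machinery with which a cell folds proteins in the endoplasmic reticulum (ER) and senses when that folding fails. They were taken by name from the deposited count table: the ER chaperones and folding factors Hspa5, Hsp90b1, Dnajb9, Sdf2l1 and Pdia4, the ER-associated degradation genes Herpud1 and Edem1, the stress sensors Atf6 and Ern1, and the transcription factor gene Xbp1. Each name matched 1 row, so that 10 of the 34513 genes of the table were members, and all 10 passed the filter on low counts that kept 18338 genes for testing. The libraries were bulk RNA-seq of 3 cultured mouse lines: MelanA (Melan-A), which the labels call nontumorigenic, and the B16 melanoma lines B16F0, called tumorigenic, and B16F10, called metastatic. Each line was sequenced untreated and after SX-682, an antagonist of the chemokine receptors CXCR1 and CXCR2, which gave 6 groups of 2 libraries. The dose and duration of SX-682 for these cultures, and whether a vehicle was added to the untreated ones, are not given in the sources used here, and the sources do not say whether the 2 libraries of a group came from separate cultures, so that the p-values measure the spread between libraries, which may be technical. Every line is an established culture, so that each stands for itself and not for melanocytes or melanomas at large.

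The ER folds secreted and membrane proteins with the help of chaperones, of which Hspa5 (also called BiP) is the central one. Unfolded protein is sensed by 3 transmembrane proteins, IRE1 (gene Ern1), ATF6 and PERK (gene Eif2ak3): IRE1 splices the Xbp1 mRNA so that it encodes an active transcription factor, ATF6 is cut to release another, and PERK slows translation while favouring the translation of ATF4. The first pair of branches is known for raising chaperone and degradation genes, and the ATF4 branch, which other kinases of the integrated stress response can also switch on, is known for raising amino acid supply genes and Ddit3 (CHOP).

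The letters by which these branches are known to reach the promoters were present in 3 of the 9 member promoters that could be read. These were the promoters of Hspa5, Hsp90b1 and Herpud1, which did not all hold the same element. Whether the elements bear on the direction of the SX-682 changes was not tested. Windows from 250 bases before to 50 after the start site were taken from RefSeq (build GRCm38.p6) and searched on both strands. The ER stress element was searched as CCAAT and CCACG with 9 bases between them, and the second ER stress element as ATTGG and CCACG with 1 base between them. Distances count from the RefSeq start site, capitals mark the matched letters, and each sequence reads along its gene's strand.
Hspa5, ER stress element 65 bases before the start, chr2:34772020-34772048, plus strand: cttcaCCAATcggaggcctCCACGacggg
Hsp90b1, ER stress element 212 bases before the start, chr10:86705633-86705661, minus strand: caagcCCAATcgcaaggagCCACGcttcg
Hsp90b1, the same element in reverse 107 bases before the start, chr10:86705528-86705556, minus strand: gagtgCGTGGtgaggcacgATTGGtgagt
Herpud1, second ER stress element 52 bases before the start, chr8:94386368-94386396, plus strand: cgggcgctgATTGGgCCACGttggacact
Of 32851 such windows, 0.119% held the ER stress element and 0.0365% the second element. The core of the XBP1 element, TGACG followed directly by TGG, was in 0.676% of windows and in 0 of the members'. The ATF4-type element, TGATG and AA with 1 base between them, was in 3.97% of windows and among the members only in Herpud1, 112 bases before the start. In reverse, the XBP1 core contains CCACG, so that it can overlap an ER stress element; the matches in the members did not overlap each other. Exact letters were searched, so that a window without a match holds no such letters and nothing more follows from it.

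A further sequence bears on how Xbp1 can be read here. IRE1 removes 26 bases from its mRNA, which lie at chr11:5524282-5524307 (GRCm38) and are in 3 of the 4 Xbp1 transcripts of GENCODE M21; they are in capitals, with 12 bases on either side.
Xbp1, the segment that IRE1 removes: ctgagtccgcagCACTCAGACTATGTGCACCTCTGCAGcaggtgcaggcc
The deposited counts are totals per gene, so that Xbp1 values are the sum of spliced and unspliced mRNA. Likewise, ATF6 and IRE1 are switched on as proteins, and the counts of their genes give mRNA levels only.

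Library totals ran from 48876982 to 85322092 counts, and a gene at the floor of 3 counts would be at 0.033 to 0.062 CPM (the depth-scaled count used throughout), far under every member. Members held between 1244 and 119383 counts in a library. Of 11 melanocyte markers, all were over the floor in MelanA and B16F0, but several defining ones were low in untreated MelanA (mean of 0.83 CPM for Tyr, 8.11 for Pmel and 0.18 for Oca2, against 670.1 for Sox10). The summed level of that list was 4390 to 4710 CPM in MelanA, and it was 25988 to 26137 CPM in untreated against 22262 to 22486 in SX-682-treated B16F0, and 37115 to 37134 against 24744 to 25163 in B16F10. The 6 immune markers summed to 25.2 and 25.5 CPM in untreated and 51.0 and 52.2 CPM in SX-682-treated MelanA, with Cd3e at 0 in the treated libraries, and to between 10.5 and 27.02 CPM in the B16 lines. In MelanA the higher sum was that of Cd68 (mean of 16.02 CPM untreated and 44.6 treated), while Lyz2 was at 6.996 and 4.555 CPM, Csf1r at 2.01 and 2.26 and Ptprc at 0.15 in both. Summed fibroblast markers were at 115.4 and 113.8 CPM in untreated MelanA, against 16.7 and 16.1 in untreated B16F0 and 8.43 and 9.72 in untreated B16F10. Keratinocyte and endothelial sums stayed at or below 6.02 and 2.43 CPM, and both of these highest sums were in MelanA. The part of these shifts in the members' values was not tested. In bulk RNA, fewer cells of a kind and less RNA per cell cannot be told apart.

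Untreated, the members were ordered much alike in the 3 lines. Per kilobase of exon, the scale on which genes can be compared, Hspa5, Hsp90b1 and Pdia4 were the 3 highest in every line, at 197 to 215 CPM per kb in MelanA, 212 to 376 in B16F0 and 242 to 322 in B16F10. Sdf2l1 came next at 38.6 ± 0.55, 96.2 ± 2.17 and 65.7 ± 2.34 CPM per kb (mean ± SD, n = 2 in each line). Ern1 was the lowest in all 3 lines, at 4.11 ± 0.031 in MelanA, 9.15 ± 0.33 in B16F0 and 9.37 ± 0.13 in B16F10, and Dnajb9 and Atf6 lay between 11.6 and 16.2. Some neighbours in this order had overlapping libraries: Hsp90b1 and Hspa5 in untreated B16F10 (319 and 326 against 318 and 324 CPM per kb), Xbp1 and Herpud1 in untreated B16F0 (40.3 and 43.0 against 40.4 and 38.6), and Xbp1 and Edem1 in untreated MelanA (25.3 and 26.6 against 25.2 and 25.7).

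**Figure D1:**
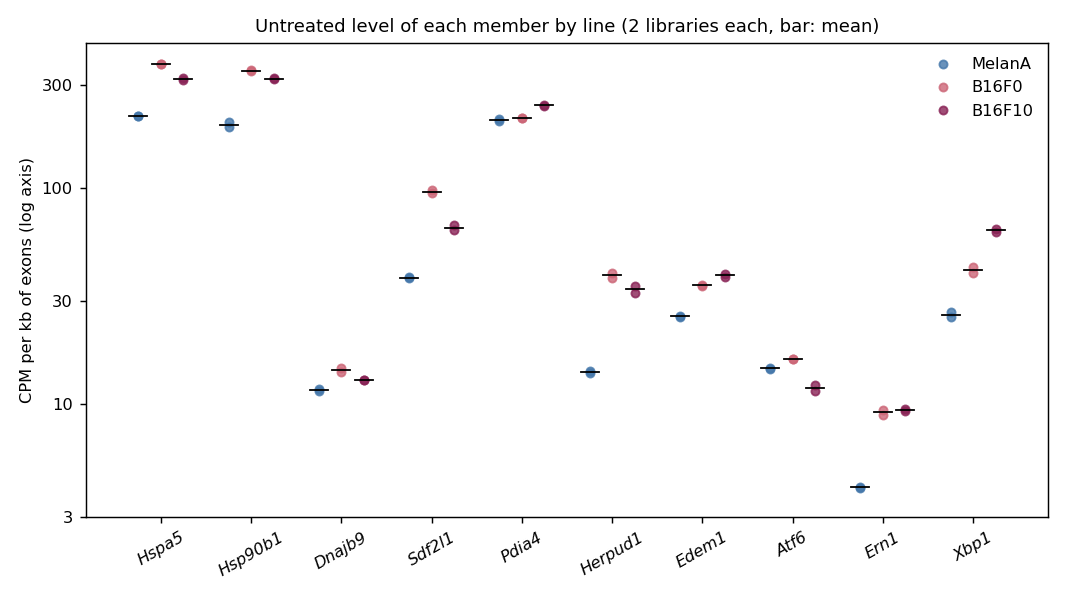
Level of each member in the untreated libraries, as CPM per kb of exon on a log axis, with 2 points per line and a bar at their mean. Hspa5, Hsp90b1 and Pdia4 lie near or above 200 in every line and Ern1 is lowest, and the MelanA mean lies below both B16 means for 9 of the 10 members, narrowly for Pdia4, Atf6 being the exception.

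Between untreated lines, most members were higher in the B16 lines than in MelanA. Adjusted p-values here and throughout are from edgeR's quasi-likelihood F-test over all 18338 genes with Benjamini-Hochberg adjustment, and a gene is called at 0.05. Shares over all genes take in tested genes of every level, and no share was computed for genes as highly expressed as the members. In B16F0 against MelanA, 9 of 10 members were called higher and 0 lower, where 35.3% of all tested genes were called higher and 40.6% lower; in B16F10 against MelanA 9 were called higher (33.4% of all genes) and 1, Atf6, lower (40.8%). The members' median log2 difference was 0.74 and 0.67 in these comparisons, against -0.06 and -0.10 over all genes. In B16F10 against B16F0, 3 of 10 members were higher (Pdia4, Edem1 and Xbp1), where 30.8% of all genes were, and 6 of 10 lower, where 31.2% were. These 3 comparisons share their untreated libraries with each other and with the SX-682 comparisons. A comparison of 2 against 2 libraries by exact permutation could not go below p = 0.333, so that calls rest on the spread shared across genes.

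SX-682 did not move the members in a single direction. In MelanA, 6 of 10 were called higher (23.4% of all tested genes) and 0 lower (24.7%): Hspa5, Dnajb9, Herpud1, Atf6, Ern1 and Xbp1. In B16F0, 3 were called higher (25.1%) and 7 lower (25%), and in B16F10 the same 3 were higher (25.5%) and the same 7 lower (25.3%); the 3 were Herpud1, Atf6 and Ern1. Called higher in all 3 lines were thus 3 members, where 11.3% of all genes were, and 0 were lower in all 3 lines, where 11.7% of all genes were. Hspa5, Dnajb9 and Xbp1, 3 of 10, were called higher in MelanA and lower in both B16 lines, a pattern called for 1.42% of all genes. No other mixed pattern was counted over all genes, and the members were chosen with earlier results known, so that this share tests nothing. The members' median log2 fold change was 0.35 in MelanA, -0.37 in B16F0 and -0.26 in B16F10, against 0 over all genes in each. No scaling tried moved the median of all genes in these comparisons by more than 0.034 on the log2 scale.

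**Figure D2:**
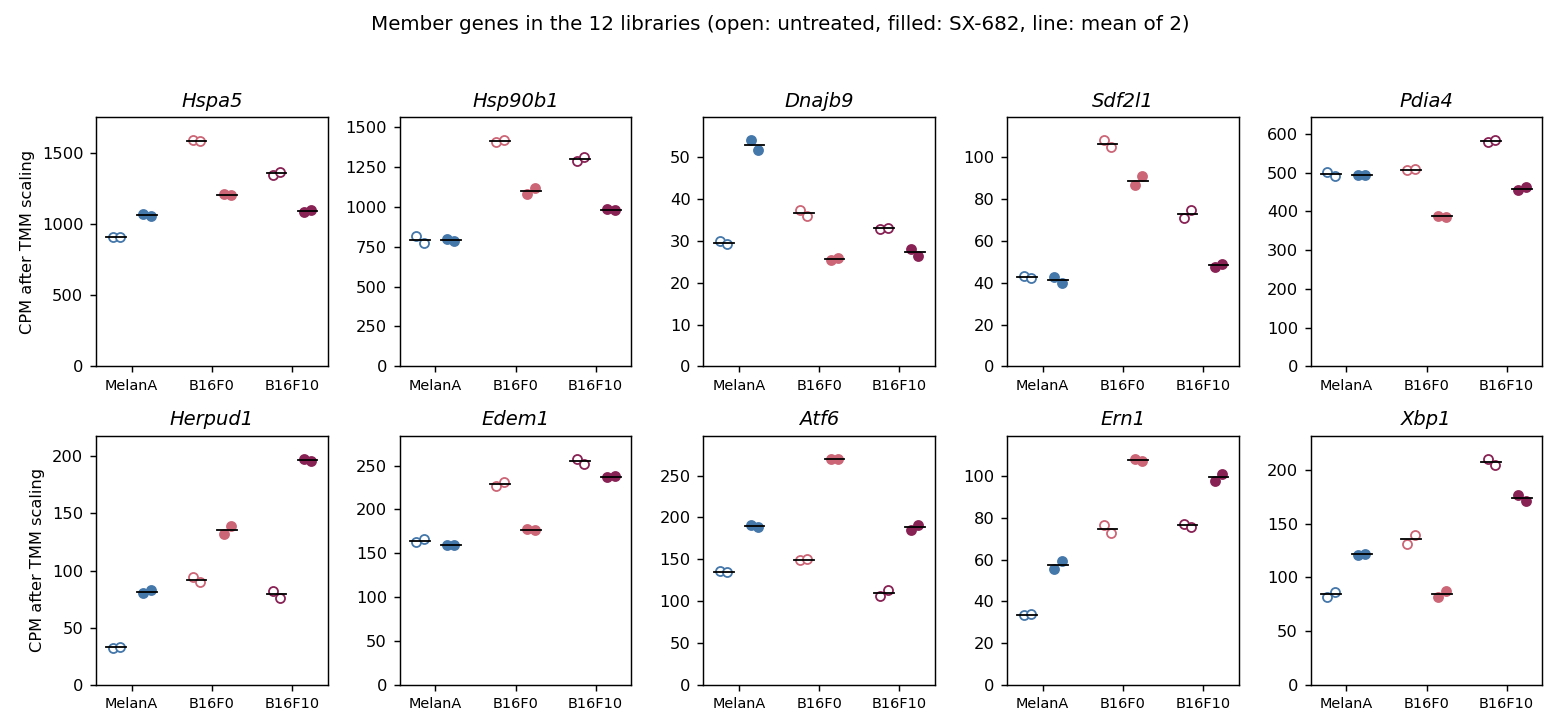
CPM of each member in every library, by line, with untreated libraries as open and SX-682 libraries as filled points and a line at the mean of 2; each panel's axis starts at 0. Filled points lie above open ones in all 3 lines for Herpud1, Atf6 and Ern1, and only in MelanA for Hspa5, Dnajb9 and Xbp1.

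Hspa5 (chr2:34771970-34777547, plus strand, here and below on GRCm38), the ER HSP70 and the main chaperone of the pathway, was at 912 and 909.6 CPM in untreated MelanA, 1594 and 1586 in B16F0 and 1346.5 and 1371.5 in B16F10. With SX-682 it was at 1070 and 1056 CPM in MelanA, 1210.2 and 1209 in B16F0 and 1087 and 1100.1 in B16F10. The treated libraries lay above the untreated ones in MelanA and below them in both B16 lines, so that the means of the lines ran from 911 ± 1.81 to 1589.7 ± 5.57 CPM untreated and from 1063 ± 9.69 to 1209.7 ± 0.67 CPM treated (SD, n = 2). The log2 fold change was 0.22 ± 0.018 (SE, adjusted p = 1.48e-11) in MelanA, -0.39 ± 0.018 (adjusted p = 3.14e-17) in B16F0 and -0.31 ± 0.018 (adjusted p = 5.28e-15) in B16F10.

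Hsp90b1 (GRP94, chr10:86690209-86705509, minus strand), the ER member of the HSP90 family, was at 815 and 773 CPM in untreated and 798 and 788 in SX-682-treated MelanA. In B16F0 it went from 1406 and 1418 CPM to 1080.3 and 1119.9, and in B16F10 from 1287 and 1313 to 985 and 979.6. The MelanA groups overlapped (log2 fold change -0.0011, 95% interval -0.047 to 0.045, adjusted p = 0.979), while both B16 lines fell, by 0.36 and 0.40 on the log2 scale (adjusted p = 2.69e-14 and 1.48e-15). Of its 4032 exonic bases, 632 (15.7%) lie under other annotated genes, 415 of them under 1810014B01Rik on the opposite strand, so that without known strand handling part of its counts cannot be assigned with certainty. For the other 9 members the shared part was under 1%.

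Pdia4 (chr6:47796141-47813430, minus strand), a disulfide isomerase of the ER, was called lower with SX-682 in both B16 lines but not in MelanA, like Hsp90b1. Its libraries were at 501 and 492 CPM in untreated and 493 and 495 in treated MelanA, where the groups overlapped (log2 fold change -0.0083, 95% interval -0.051 to 0.035, adjusted p = 0.787). In B16F0 it was at 507 and 508 CPM untreated and 388 and 386 treated, and in B16F10 at 578 and 584 untreated and 456 and 462 treated. The falls were 0.39 ± 0.021 and 0.34 ± 0.021 on the log2 scale (SE, adjusted p = 1.64e-15 and 2.37e-14). Untreated B16F10 was higher than untreated MelanA by 0.23 on the log2 scale (adjusted p = 7.29e-11), a call lost with library totals only (0.04, adjusted p = 0.0789), and higher than untreated B16F0 by 0.20 (adjusted p = 2.41e-09). Untreated B16F0 exceeded untreated MelanA by only 0.03 on the log2 scale (adjusted p = 0.189), a direction that depended on scaling: with library totals only it was -0.06 (adjusted p = 0.0074) and with upper quartile factors 0.07 (adjusted p = 0.00496).

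Sdf2l1 (chr16:17130138-17132383, minus strand), a stromal cell-derived-factor-like protein that works with ER HSP40 cochaperones, differed most between untreated lines among the chaperones. It was at 43.2 and 42.3 CPM in untreated MelanA, 108 and 105 in B16F0 and 71.0 and 74.6 in B16F10, 3 groups that did not overlap. Untreated B16F0 was higher than MelanA by 1.32 ± 0.040 on the log2 scale (SE, adjusted p = 7.14e-23) and B16F10 by 0.77 ± 0.041 (adjusted p = 1.2e-16). With SX-682 it was at 42.8 and 40.1 CPM in MelanA, where the groups overlapped (log2 fold change -0.045, 95% interval -0.13 to 0.041), at 86.6 and 91.3 in B16F0 and at 47.6 and 49.0 in B16F10. It fell by 0.26 ± 0.039 on the log2 scale in B16F0 (SE, adjusted p = 1.02e-06) and fell by 0.59 ± 0.042 in B16F10 (adjusted p = 3.4e-13), where no other member fell as far.

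Dnajb9 (ERdj4, chr12:44205559-44210326, minus strand), an HSP40 cochaperone of Hspa5 that also restrains IRE1, gave the widest divergence between MelanA and the B16 lines. It was at 30.02 and 29.2 CPM in untreated and 54.2 and 51.7 in treated MelanA, at 37.4 and 36.0 and then 25.3 and 25.8 in B16F0, and at 32.9 and 33.0 and then 28.0 and 26.5 in B16F10. Treated MelanA thus held the highest of all Dnajb9 libraries, and treated B16F0 the lowest. The rise in MelanA was 0.84 ± 0.047 on the log2 scale (SE, 78.6% higher, adjusted p = 2.6e-15), against -0.52 ± 0.051 in B16F0 (adjusted p = 4.83e-10) and -0.28 ± 0.051 in B16F10 (adjusted p = 3.2e-05). Its untreated difference of 0.15 between B16F10 and MelanA (adjusted p = 0.00555) turned to -0.03 (adjusted p = 0.577) with library totals only, and lost its call with a filter of at least 10 counts in every library (0.09, adjusted p = 0.0854). Untreated B16F10 was below B16F0 by 0.15 (adjusted p = 0.0069), a call lost without B16F0 control replicate 1 (adjusted p = 0.109) or B16F10 control replicate 2 (adjusted p = 0.0509).

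Herpud1 (chr8:94386438-94395377, plus strand), which helps to assemble the complex that returns misfolded ER proteins to the cytosol for degradation, rose in every line. It was at 32.4 and 33.1 CPM in untreated and 80.4 and 82.7 in treated MelanA, at 94.3 and 90.0 and then 132 and 139 in B16F0, and at 82.4 and 76.2 and then 198 and 195.5 in B16F10. The groups did not overlap in any line, and treated MelanA reached about the untreated B16F10 level. The log2 fold change was 1.32 ± 0.039 in MelanA and 1.31 ± 0.036 in B16F10 (SE, adjusted p = 1.48e-21 and 9.82e-23), but 0.55 ± 0.036 in B16F0 (adjusted p = 9.53e-14), whose untreated level was the highest. Among all genes tested these changes stood at the 96.6, 92.9 and 83.1 percentile of signed change in MelanA, B16F10 and B16F0. Untreated B16F0 exceeded MelanA by 1.49 ± 0.039 (adjusted p = 2.29e-24), the largest untreated difference of any member in that line, and untreated B16F10 exceeded it by 1.28 ± 0.040 (adjusted p = 2.19e-22).

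Edem1 (chr6:108828641-108859356, plus strand), a lectin-like factor that hands misfolded glycoproteins to the same degradation route, did not follow Herpud1. It was at 163 and 166 CPM in untreated and 159.4 and 159.1 in treated MelanA, groups that did not overlap yet missed the threshold (log2 fold change -0.046, adjusted p = 0.146). B16F0 went from 227 and 231 CPM to 177.4 and 176.8, a fall by 0.37 ± 0.026 (SE, adjusted p = 3.19e-13). B16F10 went from 258 and 252 CPM to 237 and 238, a fall by 0.10 ± 0.025 (adjusted p = 0.000945).

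The sensor gene Atf6 (chr1:170704674-170867771, minus strand), whose protein is cut in the Golgi to free a transcription factor, rose in all 3 lines. It was at 136 and 135 CPM in untreated and 191 and 188 in treated MelanA, at 149.4 and 149.9 and then 270.4 and 269.9 in B16F0, and at 106 and 113 and then 186 and 191.5 in B16F10. The log2 fold change was 0.49 ± 0.029 in MelanA, 0.85 ± 0.029 in B16F0 and 0.78 ± 0.030 in B16F10 (SE, adjusted p = 9.81e-15, 1.72e-20 and 2.21e-19). Atf6 was the only member lower in untreated B16F10 than in MelanA, by -0.30 ± 0.030 on the log2 scale (adjusted p = 1.96e-10). Its small untreated excess of 0.15 in B16F0 over MelanA (adjusted p = 4.78e-05) missed the threshold with library totals only (0.05, adjusted p = 0.0885).

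Ern1 (chr11:106394650-106487852, minus strand), the gene of the kinase and RNase IRE1, also rose in all 3 lines from low levels. It was at 33.4 and 33.8 CPM in untreated and 55.6 and 59.1 in treated MelanA, at 76.7 and 72.9 and then 108.5 and 107 in B16F0, and at 77.3 and 75.8 and then 97.9 and 101 in B16F10. Treated MelanA stayed below every B16 library. The log2 fold change was 0.77 ± 0.039 in MelanA, 0.53 ± 0.037 in B16F0 and 0.38 ± 0.037 in B16F10 (SE, adjusted p = 3.49e-16, 3.31e-13 and 4.05e-10). The untreated B16 lines overlapped (log2 difference 0.033, 95% interval -0.043 to 0.11, adjusted p = 0.461), and each exceeded MelanA, by 1.15 and 1.19 (adjusted p = 1.23e-21 and 7.79e-22).

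Xbp1 (chr11:5520659-5525893, plus strand), whose mRNA is the substrate of IRE1, rose with SX-682 in MelanA, as Ern1 did. In both B16 lines Xbp1 fell, while Ern1 rose. Total Xbp1 was at 82.1 and 86.5 CPM in untreated and 121.1 and 121.5 in treated MelanA, at 131 and 139.6 and then 82.1 and 87.7 in B16F0, and at 210.4 and 204 and then 176 and 171 in B16F10. It rose by 0.52 ± 0.035 on the log2 scale in MelanA (SE, adjusted p = 1.77e-13) while in B16F0 it fell by 0.67 ± 0.036 (adjusted p = 9.5e-16) and in B16F10 it fell by 0.25 ± 0.034 (adjusted p = 1.79e-07). The fall in B16F0 was the largest of any member in a B16 line and brought it to the untreated MelanA level, with overlapping libraries. Untreated levels rose from MelanA to B16F0 to B16F10 with no overlap, by 0.68 and 1.30 over MelanA (adjusted p = 5.44e-17 and 4.39e-24).

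**Figure D3:**
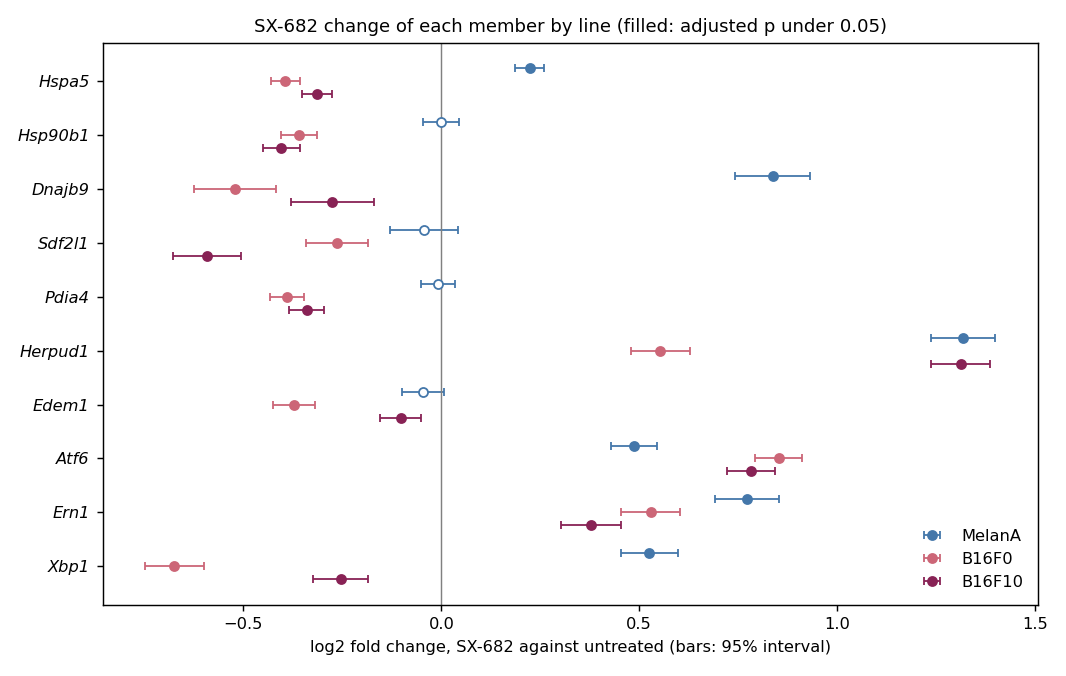
Log2 fold change of each member with SX-682 against untreated in each line, with 95% intervals as bars and filled points for adjusted p under 0.05. Herpud1, Atf6 and Ern1 lie right of 0 in all 3 lines, the other 7 lie left of 0 in both B16 lines, and of these Hspa5, Dnajb9 and Xbp1 lie right of 0 in MelanA.

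The differences between lines were tested in the same fit. Against the change in MelanA, the mean change of the B16 lines was lower for 9 members (17.1% of all genes were called lower) and higher for 1, Atf6 (18.7%), with a median of -0.38 on the log2 scale over members and 0.02 over all genes. The largest differences were those of Dnajb9, -1.24 ± 0.059 (SE, adjusted p = 1.95e-16), Xbp1, -0.99 ± 0.043 (adjusted p = 2.39e-17), and Hspa5, -0.58 ± 0.022 (adjusted p = 1.62e-18), and that of Atf6 was 0.33 ± 0.035 (adjusted p = 7.55e-09). For Herpud1 the difference was -0.39 ± 0.047 (adjusted p = 8.89e-08), with nearly equal changes in B16F10 and MelanA and a smaller one in B16F0.

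Between the B16 lines the change in B16F10 was higher than in B16F0 for 5 members (15.3% of all genes) and lower for 2 (14.9%). Herpud1 led with 0.76 ± 0.051 (SE, adjusted p = 1.35e-12), followed by Xbp1 (0.42 ± 0.050, adjusted p = 9.22e-08), Edem1 (0.27 ± 0.036, adjusted p = 8.15e-07), Dnajb9 (0.25 ± 0.072, adjusted p = 0.00863) and Hspa5 (0.08 ± 0.026, adjusted p = 0.0172). Sdf2l1 (-0.33 ± 0.057, adjusted p = 3.59e-05) and Ern1 (-0.15 ± 0.052, adjusted p = 0.028) went the other way. The calls of 3 of these rested on single libraries. That of Hspa5 was lost without B16F0 control replicate 1, B16F10 control replicate 1 or B16F10 SX-682 replicate 2 (adjusted p = 0.0562, 0.0871 and 0.0638). That of Dnajb9 was lost without B16F0 control replicate 1 or B16F10 SX-682 replicate 1 (adjusted p = 0.0541 and 0.0756). That of Ern1 was lost without B16F0 control replicate 2, B16F0 SX-682 replicate 1, B16F10 control replicate 1 or B16F10 SX-682 replicate 1 (adjusted p = 0.169, 0.0626, 0.103 and 0.105). For Hsp90b1, Pdia4 and Atf6 the difference between the B16 lines missed the threshold, with 95% intervals of -0.11 to 0.021, -0.013 to 0.11 and -0.15 to 0.015.

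As a share of all counts, the 5 chaperones took 0.245% and 0.239% in untreated and 0.265% and 0.262% in treated MelanA, 0.364% and 0.365% and then 0.276% and 0.279% in B16F0, and 0.311% and 0.315% and then 0.247% and 0.246% in B16F10. Untreated groups were thus spread from 0.239% to 0.365%, and treated ones from 0.246% to 0.279%. Most of these counts were those of Hspa5, Hsp90b1 and Pdia4, so that the sum says little of Dnajb9 and Sdf2l1. Over the 12 libraries, which share lines and treatments and are no independent points, log2 CPM of Hspa5 ran closest to that of Hsp90b1 (Pearson r = 0.95) and Sdf2l1 (0.88), and Herpud1 closest to Ern1 (0.94). Pdia4 and Atf6 ran opposite (r = -0.94). Among 9351 other genes with a mean log2 CPM of at least 3, those most like the mean of the members' standardized values were Rapgef4 (r = 0.98), Tmem192 (0.97), Acsl3 (0.97), Rab3a (0.97) and Tmod1 (0.95), and those most like Hspa5 were Cog2 (0.98), Ldha (0.98), Cyp51 (0.97), Tfg (0.97) and Slc6a17 (0.96).

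Other genes of the pathway were counted in 7 lists, each to be read beside the shares over all genes given above. Of 13 genes of the PERK arm, 11, 13 and 13 were called higher with SX-682 in MelanA, B16F0 and B16F10 and 1, 0 and 0 lower, with median log2 fold changes of 0.96, 1.26 and 2.08 against 0 over all genes. Of these, 11 were higher in all 3 lines. Atf4, the transcription factor of the branch, rose by 0.73, 1.02 and 1.45 in that order of lines (adjusted p = 8.11e-21, 3.9e-24 and 6.26e-28), and Trib3, a pseudokinase it induces, went from 110 ± 3.54 to 324 ± 4.07 CPM in MelanA and from 10.5 ± 0.82 to 325 ± 0.39 CPM in B16F10 (SD, n = 2). Ddit3 stood at 48.5 ± 1.85 CPM in untreated and 214 ± 3.14 in treated MelanA, at 72.6 ± 1.18 and 302 ± 19.97 in B16F0 and at 31.5 ± 0.30 and 357 ± 5.73 in B16F10. The other 2 were not called higher in MelanA. Atf5, a transcription factor of the branch, was at -0.05 in MelanA (adjusted p = 0.223) and rose by 0.70 and 0.54 in B16F0 and B16F10 (adjusted p = 1.6e-15 and 5.65e-14). Ppp1r15b, which restores translation by helping to dephosphorylate eIF2α, fell by 0.10 in MelanA and rose by 0.21 in both B16 lines (adjusted p = 0.0133, 3.56e-06 and 4.29e-06).

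Of 21 other ER folding genes, 10, 14 and 17 were lower and 5, 3 and 1 higher in MelanA, B16F0 and B16F10, with medians of -0.09, -0.29 and -0.44. Lower in all 3 lines were 7: Calr, Dnajb11, Dnajc10, Dnajc3, Fkbp14, Manf and Pdia3. Dnajc3 (p58IPK), a cochaperone that also restrains PERK, fell most, by 0.49, 0.81 and 1.15 (adjusted p = 9.16e-14, 5.18e-19 and 7.43e-23). Sil1, a nucleotide exchange factor of Hspa5, was the only gene of the list higher in all 3 lines, by 0.70, 0.77 and 0.91 (adjusted p = 1.17e-14, 1.01e-15 and 1.71e-17).

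Degradation genes split. Of 20 tested (Derl3 did not pass the filter), 10, 7 and 7 were higher and 5, 7 and 6 lower in MelanA, B16F0 and B16F10, with medians of 0.07, 0.002 and -0.02. Higher in all 3 lines were 6, Aup1, Derl1, Erlec1, Herpud2, Os9 and Ubxn4, among which the Herpud1 paralog Herpud2 rose most, by 0.60, 0.65 and 0.68. Edem3, a paralog of Edem1, fell by 0.55, 0.81 and 0.69 and was lower in all 3 lines together with Ube2g2. Of 23 translocation genes, 9, 6 and 5 were higher and 4, 14 and 16 lower, from Srp68 of the signal recognition particle (0.29, 0.23 and 0.36 higher) to Spcs3 of the signal peptidase (fell by 0.41, 0.68 and 1.05).

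Among 13 other stress transducers (Ern2 did not pass the filter), 5, 5 and 3 were higher and 3, 3 and 5 lower. Eif2ak3, the gene of the third sensor PERK, rose in MelanA (0.39 ± 0.037, SE, adjusted p = 3.17e-10) and fell in B16F0 (-0.58 ± 0.039, adjusted p = 1.24e-13) and B16F10 (-0.18 ± 0.037, adjusted p = 0.000128), the direction pattern of Hspa5, Dnajb9 and Xbp1. Wfs1, an ER calcium regulator, was slightly higher in all 3 lines (0.23, 0.29 and 0.17), and Tmbim6, an ER membrane protein that restrains IRE1, slightly lower (-0.26, -0.12 and -0.23). Of 5 mRNAs known as substrates of IRE1 decay, 2, 2 and 1 were higher and 2, 0 and 2 lower, with Pdgfrb higher in all 3 lines (0.35, 0.50 and 0.64) and Col6a1 at -0.30 in MelanA and -1.01 in B16F10 and near the floor in B16F0.

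Of the 7 HSP70 and HSP90 genes of other compartments, 3 rose and 2 fell in all 3 lines. Hspa8, the constitutive cytosolic HSP70, fell by 0.20, 0.72 and 0.89 and Hsp90aa1, a cytosolic HSP90, by 0.24, 0.39 and 0.31 in MelanA, B16F0 and B16F10. Hspa9 and Trap1, the mitochondrial members of the families, rose by 0.58, 0.60 and 0.81 and by 0.27, 0.23 and 0.35. Hspa1b rose from 9.41 ± 0.90 to 39.9 ± 4.17 CPM in MelanA and from 6.71 ± 0.24 to 59.7 ± 2.25 CPM in B16F10 (SD, n = 2), while its near-identical copy Hspa1a was under 0.3 CPM in every group, and reads shared by the copies make both values uncertain. Hsp90ab1 rose by 0.07 in MelanA and B16F0 (adjusted p = 0.000848 and 0.00171) and was at -0.0047 in B16F10 (adjusted p = 0.872). The mRNAs of the SX-682 targets were scarcely detected, and such counts do not measure receptor protein. Cxcr2 had 79 and 76 counts in untreated and 34 and 47 in treated MelanA (adjusted p = 0.24). The B16 libraries held between 0 and 5 counts of Cxcr1 or Cxcr2. The paper, by contrast, reports higher Cxcr2 in both B16 lines than in Melan-A, by mRNA and by labeling of protein at the cell surface. Its figure legend credits the mRNA values to the NCBI database and the protein values to flow cytometry. It does not say whether the mRNA values come from the present libraries. In MelanA Cxcr1 had 21 and 13 counts untreated and 2 and 3 treated, and was called lower (log2 fold change -2.44, adjusted p = 0.0391), a fitted value that depends on the prior count, since the treated libraries were at or under the floor of 3 counts.

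**Figure D4:**
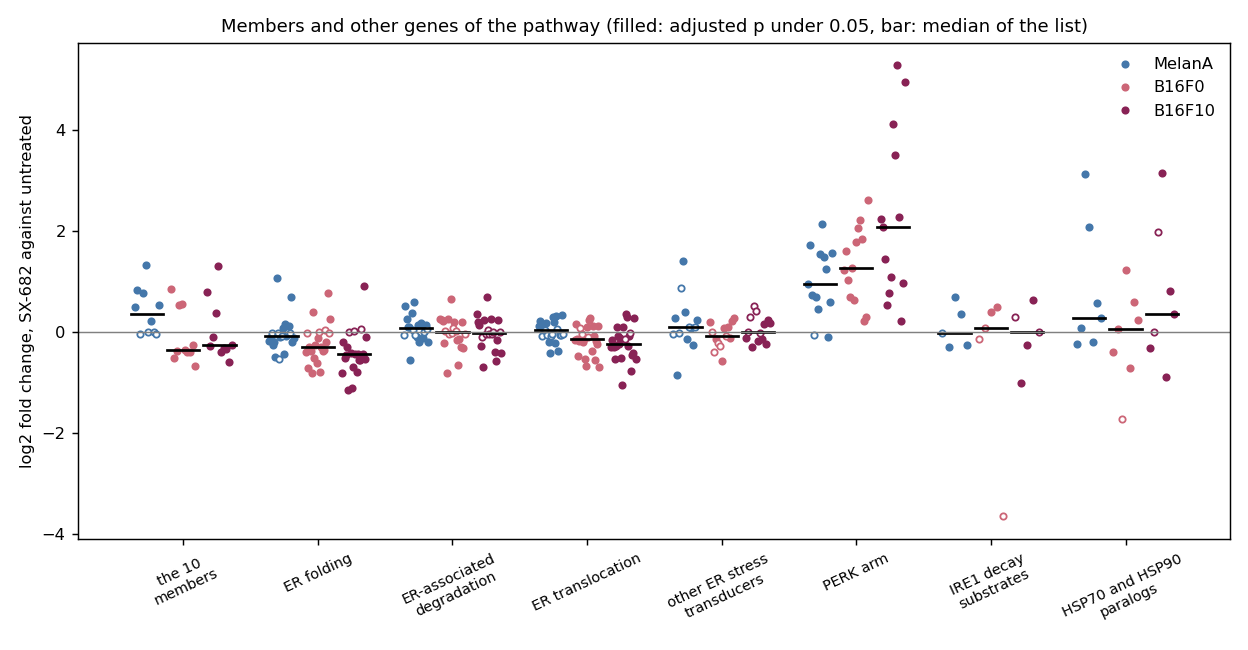
Log2 fold change with SX-682 of each member and of each tested gene of the 7 other lists, by line, with filled points for adjusted p under 0.05 and a bar at the median of the list. The median of the PERK arm lies above 0 in all 3 lines (0.96, 1.26 and 2.08), and that of the ER folding genes below 0 (-0.09, -0.29 and -0.44).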

How the data were processed

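The authors deposited whole-number read counts per gene, without normalization, for 12 libraries on GRCm38 (mm10) coordinates. The submitters' processing notes name cutadapt, STAR and DESeq2 without versions or roles; the counting program, its strand handling and its treatment of reads shared by copies are not given in the sources used here. The name of each of the 12 columns gave its library. Of 34513 genes, 34422 had their identifier in GENCODE M21, and for 98.5% the deposited length equalled the union of exons there, which was used for CPM per kb.

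Counts were tested with edgeR 4.0.16 in R 4.3.3 (quasi-likelihood F-test, TMM scaling, filterByExpr, prior count 0.125, all libraries in 1 fit of 6 groups, 6 residual and 21.9 prior degrees of freedom, common coefficient of variation 2.78%), with Benjamini-Hochberg adjustment over 18338 genes at 0.05. Standard errors and 95% intervals were derived from the F statistic. Totals were 48876982 to 85322092 counts, and the floor of 3 counts covers only counting error, as molecular identifiers are not mentioned. Replicates of a group differed by 2.82 to 4.97 units of chi-square per gene, more than sampling noise. The fits were also run on simulated counts with the same spread for all genes and no differences between lines, a setting unlike these data. Promoters are RefSeq windows (GRCm38.p6), of which Atf6 had none in the table used.

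The members and lists were chosen with earlier results of these data known. Named besides the members were Eif2ak3, Atf4, Ddit3, the 7 paralogs, Cxcr1, Cxcr2, the gene of largest and of smallest mean change in each other list (mean log2 CPM of at least 1), and the 5 genes most like the members' mean and the 5 most like Hspa5; further genes called in all 3 lines were named after their values were seen. Alternatives were DESeq2 1.42.0, 3 other scalings, 2 other filters, separate fits, a replicate block, a prior count of 2, stricter thresholds and leaving out each library.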

Additional observations from a re-analysis of the deposited data

Results flagged for a closer look

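What drew attention here was a change with SX-682 that differed between lines by a test of the difference itself. Between the B16 lines, such a difference (change in B16F10 minus change in B16F0, log2 scale) was found for Herpud1 (0.76), Xbp1 (0.42), Edem1 (0.27), Dnajb9 (0.25), Hspa5 (0.081), Sdf2l1 (-0.33) and Ern1 (-0.15); those of Hspa5, Dnajb9 and Ern1 were lost when single libraries were left out. Between the mean of the B16 lines and MelanA it was found for every member: Dnajb9 (-1.24), Xbp1 (-0.99), Hspa5 (-0.58), Herpud1 (-0.39), Sdf2l1 (-0.38), Hsp90b1 (-0.38), Pdia4 (-0.36), Ern1 (-0.32), Edem1 (-0.19) and Atf6 (0.33). The cause of these differences was not tested.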

How the results depend on the processing

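With 2 libraries a group, calls rest on the spread shared across genes. Of 1584 values under an alternative (16 counts of members and the 80 log2 fold changes), 1503 kept their call, or stayed within 1.5 times for counts. A value called under neither setting counted as kept even where its sign changed. An example is Hsp90b1 with SX-682 in MelanA, which ran from -0.035 to 0.044. The replicate block changed none of 96 values (for example 6 members higher and 0 lower in MelanA). In this balanced design such a block hardly moves the fold changes, so that a call could change only through the estimated spread. Same-numbered libraries did not deviate together (r = -0.028, -0.011 and -0.0089 over 9361 genes in MelanA, B16F0 and B16F10). Samples handled in pairs without a shared deviation would look the same, so that pairing by number is not excluded.

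With library totals only, the median of all genes moved by -0.19 and the share of higher calls from 45% to 34.3% in untreated B16F10 against MelanA; Dnajb9 turned to -0.031 there and Pdia4 to -0.062 in untreated B16F0 against MelanA, where 1 member was called lower, against 0. For the difference between the B16 lines' changes, 1 member was then called lower, as at an adjusted p of 0.01, against 2; leaving out single libraries gave 3 to 5 higher and 1 to 2 lower. Hspa5 lost its call there under RLE scaling, a stricter filter or a separate fit (adjusted p = 0.0938, 0.0507 and 0.0573).

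A fold limit of 0.5 on the log2 scale, in either direction, left 2 members lower in B16F0 and 1 in B16F10 with SX-682. Hspa5 (0.22) and Atf6 (0.49) missed it in MelanA, and Ern1 (0.38), Dnajb9 (-0.28) and Xbp1 (-0.25) in B16F10. Of the members called higher in all 3 lines, only Herpud1 then passed in each. None of Hspa5, Dnajb9 and Xbp1 kept the pattern of higher in MelanA and lower in both B16 lines. The limit left 0 lower in untreated B16F10 against MelanA, and 1 higher and 1 lower in untreated B16F10 against B16F0. Between the B16 lines' changes it left 1 higher and 0 lower, and for the B16 mean against MelanA 0 higher and 3 lower. Over all genes that limit took SX-682 calls from 4299 higher and 4532 lower to 1522 and 1467 in MelanA, from 4594 and 4593 to 1871 and 1690 in B16F0, and from 4681 and 4640 to 2099 and 1845 in B16F10. It took untreated calls from 6480 to 4247 higher in B16F0 and from 6119 to 3705 higher in B16F10 against MelanA, and from 5639 higher and 5729 lower to 2786 and 3432 in B16F10 against B16F0. Differences of changes went from 2811 and 2740 to 837 and 705 between the B16 lines and from 3431 and 3128 to 1027 and 986 against MelanA.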
